A study of Mus musculus with 12 samples.

Results

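Transcripts of 10 dual-specificity phosphatase genes that act on MAP kinases were measured in mouse hearts after ischemia and reperfusion, with and without the small molecule ML264. The genes were Dusp1, Dusp2, Dusp4, Dusp5, Dusp6, Dusp7, Dusp8, Dusp10, Dusp14 and Dusp16, taken by symbol from the 33615 gene symbols of the deposited table of estimated transcript counts, which were summed per gene. Of the 10, 8 passed the filter on low counts and were tested, and Dusp2 and Dusp14 did not pass it. In the I/R + ML264 group, hearts had 30 min of ischemia and 2 h of reperfusion together with ML264, which was given to inhibit the transcription factor KLF5. The I/R group had the same injury without ML264, and the Sham group had the sham operation. Each group held 4 libraries of total RNA from frozen heart. The labels give no strain, genotype, age or sex, no dose, route or time of ML264, and no vehicle for the other groups, and they do not say which part of the heart was taken. Separate animals are not stated for the libraries either, and p-values therefore measure the spread between these 12 libraries, which may be technical. The tissue label was checked against markers. All 10 cardiomyocyte markers were measured, and the heavy chain gene Myh6 stood at 10450 to 12400 CPM in I/R + ML264, 9885 to 12260 CPM in I/R and 9218 to 11050 CPM in Sham (CPM, counts per 1 M of library total, scaled with TMM factors).

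MAP kinases are switched on by phosphorylation of a threonine and a tyrosine in their activation loop, and dual-specificity MAP kinase phosphatases switch them off by removing both phosphates. The family divides by place and substrate. Dusp1, Dusp2, Dusp4 and Dusp5 encode nuclear enzymes whose genes are induced by the signals that activate MAP kinases, Dusp6 and Dusp7 encode cytoplasmic enzymes that prefer ERK, Dusp8, Dusp10 and Dusp16 encode enzymes that prefer JNK and p38, and Dusp14 encodes a small atypical member without the kinase-binding domain of the others. In the heart, ERK, JNK and p38 are activated by ischemia, reperfusion and stretch, and these phosphatases are known as the feedback that ends their activity.

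The promoters of 3 genes are printed: Dusp1, the member with the highest level per length, and Dusp5 and Dusp16, the members that rose after injury. Each sequence spans 250 bases before to 50 bases after the gene's start in RefSeq (build GRCm38.p6), 5′ to 3′ on the gene's strand. Capitals mark matches on either strand to the cAMP response element (TGACGTCA), its core (TGACG, which also lies inside the full element), the E-box (CACGTG), the AP-1 site (TGANTCA), the CArG box of serum response elements, the NF-kB site and the glucocorticoid response element. The Dusp1 promoter lies at chr17:26508423-26508722 (minus strand), the Dusp5 promoter at chr19:53528895-53529194 (plus strand) and the Dusp16 promoter at chr6:134792579-134792878 (minus strand).
Dusp1: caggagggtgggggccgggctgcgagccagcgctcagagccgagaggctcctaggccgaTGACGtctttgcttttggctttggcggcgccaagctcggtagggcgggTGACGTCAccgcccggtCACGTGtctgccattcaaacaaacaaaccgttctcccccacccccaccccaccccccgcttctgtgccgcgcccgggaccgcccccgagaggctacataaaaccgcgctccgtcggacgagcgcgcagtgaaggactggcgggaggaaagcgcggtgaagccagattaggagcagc
Dusp5: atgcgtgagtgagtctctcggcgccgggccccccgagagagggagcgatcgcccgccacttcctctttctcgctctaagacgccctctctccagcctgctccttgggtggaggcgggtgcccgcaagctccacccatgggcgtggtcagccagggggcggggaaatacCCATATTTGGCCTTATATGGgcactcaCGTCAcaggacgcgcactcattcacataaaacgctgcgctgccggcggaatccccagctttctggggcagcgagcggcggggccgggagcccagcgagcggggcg
Dusp16: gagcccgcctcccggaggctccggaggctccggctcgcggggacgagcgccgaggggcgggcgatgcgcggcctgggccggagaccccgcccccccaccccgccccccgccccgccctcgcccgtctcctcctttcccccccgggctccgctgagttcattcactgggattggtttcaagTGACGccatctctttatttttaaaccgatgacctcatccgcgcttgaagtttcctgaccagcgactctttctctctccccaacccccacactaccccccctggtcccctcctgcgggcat
In the Dusp1 promoter the letters TGACGTCA stood 143 bases before the start and CACGTG 126 bases before it. The Dusp5 promoter held 2 adjoining CArG boxes, at 82 and 72 bases before the start, and a TGACG core at 55 bases. The Dusp16 promoter held a TGACG core at 70 bases before the start and none of the other marked motifs. GC boxes (GGGCGG) and CACCC boxes were also searched on both strands and are not marked. They matched 3 and 5 times in Dusp1, 1 and 3 times in Dusp5, and 5 and 1 times in Dusp16. Among all promoters searched, 35.7% held a GC box and 57.5% a CACCC box. Of 32851 mouse promoters of the same length, 1.79% held the full cAMP element, 20.8% its core, 7.15% the E-box and 1.63% a CArG box. Among the 9 members with a RefSeq promoter, Dusp8 also held the full cAMP element, with 2 matches. Such matches are letters in a window and say nothing of which factor was bound in these hearts.

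Each library held 22.26 to 29.93 M (mega) estimated counts in total, so 3 counts, the limit that a count of 0 allows, stood for 0.1002 to 0.1348 CPM. The libraries differed in 2 ways that the groups do not explain. The Y-linked gene Ddx3y was nearly absent from I/R + ML264 libraries 1 and 2 and from I/R libraries 1 and 4 (0.106 to 0.484 CPM), and it stood at 38.8 to 52.0 CPM in the remaining 8, which include every Sham library. Arntl, a core clock gene, stood at 11.1 CPM in I/R library 1 and at 10.4 and 15.3 CPM in Sham libraries 2 and 3, against 1.05 to 3.26 CPM in the other 9. The labels give neither sex nor time of day, and results on the phosphatases are given with and without these libraries where a call depends on them.

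Dusp1 was the most abundant member by far. Per kilobase of its longest coding transcript it averaged 51.4 CPM over the 12 libraries, and Dusp16 followed at 4.93, Dusp7 at 4.30, Dusp6 at 2.65, Dusp8 at 1.87 and Dusp10 at 1.79 CPM per kilobase. Dusp5 stood at 0.442, Dusp4 at 0.285, Dusp14 at 0.132 and Dusp2 at 0.0447 CPM per kilobase. The order of these means was the same with the mean transcript length. Dusp1 stood above Dusp16 and Dusp7 above Dusp6 in 12 of 12 libraries. Per kilobase of the longest coding transcript, Dusp6 stood above Dusp8, Dusp10 above Dusp5 and Dusp4 above Dusp14 in 11 of 12 libraries. Dusp14 stood above Dusp2 in 10 of 12. For the remaining 3 neighbouring pairs the order varied most with the group. Dusp16 stood above Dusp7 in 2 of 4 I/R + ML264 libraries, 4 of 4 I/R libraries and 1 of 4 Sham libraries, and so did Dusp8 above Dusp10. Dusp5 stood above Dusp4 in 3 of 4 I/R + ML264 libraries, 4 of 4 I/R libraries and 1 of 4 Sham libraries. The difference in order between groups was not tested.

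I/R was set against Sham for the effect of the injury. Of the 8 tested phosphatase genes, 2 rose and none fell: Dusp5, a nuclear phosphatase specific for ERK, and Dusp16, a phosphatase of JNK and p38. Among all 15952 genes tested, 4.58% were called higher and 3.17% lower in this comparison (edgeR quasi-likelihood test, Benjamini-Hochberg adjusted p under 0.05), and 3 members had an unadjusted p under 0.05, where 23.2% of all genes did. The median log2 fold change was 0.41 over the 8 members and 0.002 over all genes tested. In bulk tissue, fewer cells of a type and less RNA per cell cannot be told apart.

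**Figure D1:**
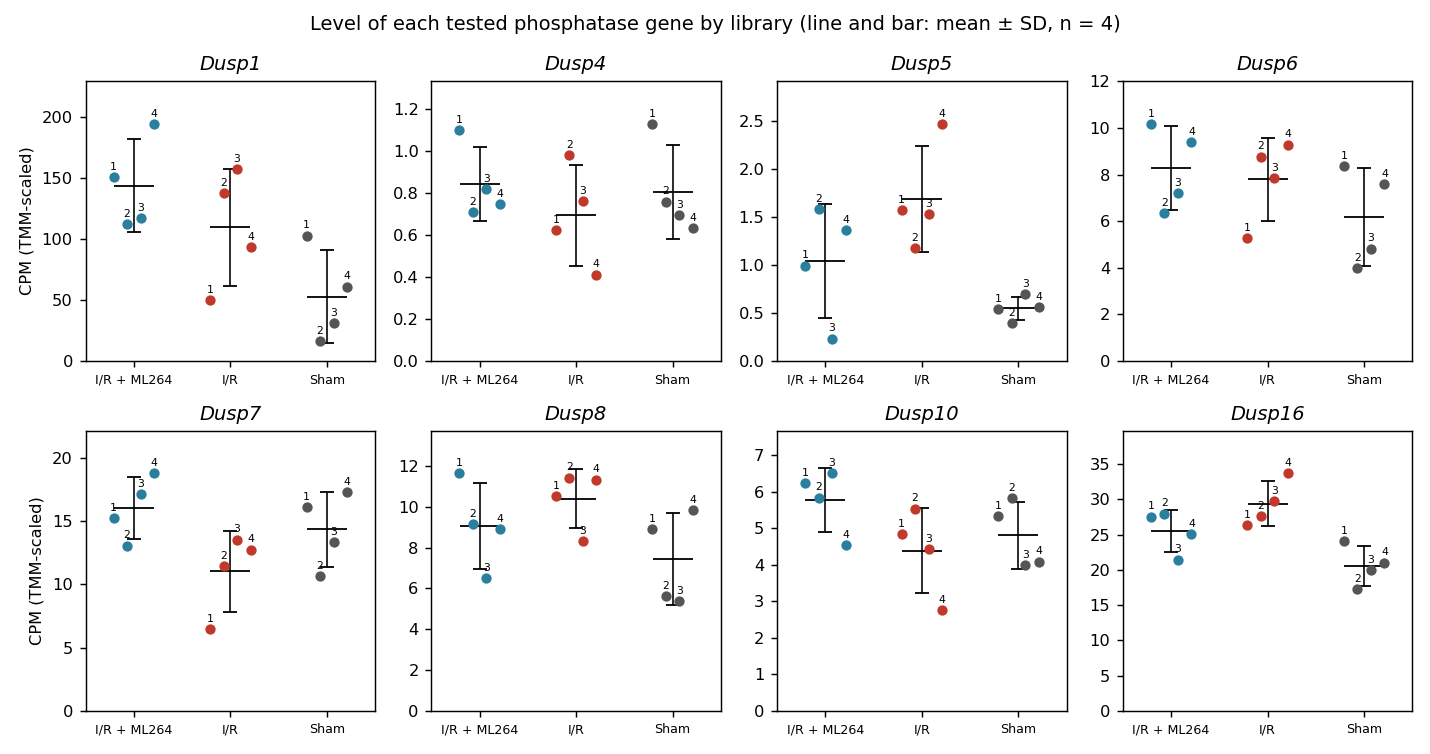
Level of each of the 8 tested phosphatase genes in CPM (vertical axis, from 0, a scale per gene) in the 12 libraries, with the library number beside each point and the group mean ± SD (n = 4) as line and bar. The 4 I/R libraries lie above all 4 Sham libraries for Dusp5 and Dusp16, and the 4 I/R + ML264 libraries lie above all 4 Sham libraries for Dusp1.

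Among the nuclear, inducible members, Dusp5 (chromosome 19, 53529109 to 53542431, plus strand, GRCm38) had 1.58, 1.179, 1.53 and 2.47 CPM in I/R libraries 1 to 4, against 0.543, 0.398, 0.695 and 0.564 CPM in Sham libraries 1 to 4. All 4 I/R libraries lay above the highest Sham library. The log2 fold change was 1.61 ± 0.43 (SE, 95% interval 0.70 to 2.52), a rise of 3.05-fold with edgeR adjusted p = 0.0311. The gene was low, with 30 to 66 counts per I/R library and 11 to 20 per Sham library. The call ended without any 1 of the 4 Sham libraries and without I/R library 1, 3 or 4, with log2 fold changes of 1.37 to 1.75 and adjusted p of 0.00656 to 0.103 over the 12 fits that left out 1 library. Dusp5 also shares 21.2% of its 31-base words with the antisense gene AC137853.2. The library kit does not mark strand, so reads from both cannot be told apart.

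Dusp1 (chromosome 17, 26505590 to 26508519, minus strand) is the immediate early member of the family and acts on p38 and JNK as well as ERK. It had 49.99, 138, 158 and 93.7 CPM in I/R libraries 1 to 4, against 103, 16.6, 30.95 and 61.2 CPM in Sham libraries 1 to 4. The groups overlapped, since Sham library 1 lay above I/R libraries 1 and 4. The log2 fold change of 1.06 ± 0.55 (SE, 95% interval -0.19 to 2.31) did not pass (edgeR adjusted p = 0.294). Dusp4, whose product acts on ERK, JNK and p38, had 0.623, 0.983, 0.764 and 0.412 CPM in I/R, against 1.13, 0.760, 0.695 and 0.634 CPM in Sham. The groups overlapped throughout, with a log2 fold change of -0.20 ± 0.35 (SE, 95% interval -0.95 to 0.54, adjusted p = 0.785). Dusp2, a nuclear phosphatase known from lymphocytes and other blood cells, was at the limit of detection with 7, 3, 2 and 2 counts in I/R and 0, 3, 0 and 0 in Sham. Scaled for depth the ratio of summed counts, 14 in I/R against 3 in Sham, was 4.43 (95% counting interval 1.24 to 24.02), and the exact two-sided permutation p over the 4 and 4 libraries was 0.0857, where 0.0286 is the smallest these groups can give.

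The cytoplasmic, ERK-preferring members did not pass the test. Dusp6, itself a known target gene of ERK signalling, had 5.27, 8.77, 7.84 and 9.28 CPM in I/R libraries 1 to 4, against 8.37, 3.98, 4.83 and 7.58 CPM in Sham libraries 1 to 4. The highest Sham library exceeded 2 of the 4 I/R libraries, and the log2 fold change was 0.34 ± 0.24 (SE, 95% interval -0.18 to 0.85, adjusted p = 0.451). Dusp7, its close relative, went the other way in its mean, with 6.45, 11.4, 13.6 and 12.8 CPM in I/R against 16.1, 10.7, 13.4 and 17.3 CPM in Sham. I/R library 1 lay below every Sham library and the other 3 lay among them, with a log2 fold change of -0.38 ± 0.21 (SE, 95% interval -0.83 to 0.07, adjusted p = 0.304).

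Of the members that prefer JNK and p38, Dusp16 (chromosome 6, 134715468 to 134792625, minus strand) had 26.4, 27.6, 29.7 and 33.7 CPM in I/R libraries 1 to 4, against 24.1, 17.3, 19.97 and 21.03 CPM in Sham libraries 1 to 4. No Sham library reached the lowest I/R library. The log2 fold change was 0.51 ± 0.12 (SE, 95% interval 0.27 to 0.76), or 1.43-fold, with edgeR adjusted p = 0.0140, and without Sham library 2 the adjusted p was 0.0529. Dusp8 had 10.5, 11.4, 8.33 and 11.3 CPM in I/R, against 8.91, 5.61, 5.38 and 9.83 CPM in Sham. Only I/R library 3 fell within the Sham range, and the log2 fold change of 0.49 ± 0.21 (SE, 95% interval 0.05 to 0.93) had an unadjusted p of 0.0329 and an adjusted p of 0.170. Dusp10, the third of this group, had 4.83, 5.54, 4.42 and 2.77 CPM in I/R and 5.34, 5.83, 3.995 and 4.09 CPM in Sham. Its lowest value was I/R library 4 and the other I/R libraries lay within the Sham range, with a log2 fold change of -0.13 ± 0.21 (SE, 95% interval -0.56 to 0.30, adjusted p = 0.760). Dusp14, the atypical member, had 0, 8, 5 and 13 counts in I/R and 4, 4, 5 and 8 in Sham, with exact permutation p = 0.971. The groups that do not overlap in CPM were thus those of Dusp5 and Dusp16, 2 of 8 members, where 8.54% of all genes tested had all I/R libraries above all Sham libraries.

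Cell type markers also moved between the same groups. Of 10 cardiomyocyte markers 2 rose, Tnnt2 (log2 fold change 0.35 ± 0.10, adjusted p = 0.0394) and Actn2 (0.40 ± 0.08, SE, adjusted p = 0.00595), with a median of 0.07 over the list, which summed to 25110 to 28330 CPM in I/R and 22780 to 26490 CPM in Sham. Of 8 tested endothelial markers 2 fell (Kdr and Tek), and the summed level of the list was 407 to 460 CPM in I/R and 488 to 580 CPM in Sham. Much of that difference was Kdr, which averaged 90.3 CPM in I/R and 155.5 CPM in Sham. Pecam1 (0.05 ± 0.09), Cdh5 (0.04 ± 0.08) and Vwf (0.21 ± 0.29, log2 fold change ± SE) were not lower. Tie1 (-0.38 ± 0.13), Egfl7 (-0.67 ± 0.25) and Emcn (-0.39 ± 0.13) were lower without a call. Neutrophil markers summed to 8.06 to 19.6 CPM in I/R and 4.76 to 7.26 CPM in Sham, with none of the 4 tested called, 2 at an unadjusted p under 0.05 and 2 called by DESeq2. S100a8 was at 0 in every Sham library and at 0.118 to 0.524 CPM in I/R. Ly6g was also at 0 in every Sham library, and in I/R it reached at most 0.0749 CPM, with a mean of 0.0187. Of 9 monocyte and macrophage markers, Cd14 rose and Adgre1 fell, and of 7 smooth muscle and pericyte markers Pdgfrb fell. Platelet markers summed to 3.82 to 140 CPM in I/R and 2.08 to 14.9 CPM in Sham. None of the 4 tested was called by edgeR, 1 had an unadjusted p under 0.05 and 1 was called by DESeq2. Much of the I/R range was Ppbp, which averaged 32.5 ± 52.0 CPM there (SD) and reached 109.5 CPM. The part of cell composition in the rise of Dusp5 and Dusp16 was not tested.

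I/R + ML264 was set against I/R for the effect of the inhibitor after injury. No phosphatase gene was called by edgeR or by DESeq2, in a comparison where 0.0502% of all genes tested, 8 genes, were called by edgeR and 153 genes by DESeq2. The member with an unadjusted p under 0.05 was Dusp7, where 10.4% of all genes had one. Dusp7 had 15.2, 13.1, 17.1 and 18.8 CPM in I/R + ML264 libraries 1 to 4, against 6.45, 11.4, 13.6 and 12.8 CPM in I/R libraries 1 to 4. I/R + ML264 library 2 lay below I/R library 3, so the groups overlapped. The log2 fold change was 0.54 ± 0.21 (SE, 95% interval 0.09 to 0.99), with an edgeR adjusted p of 0.382, and it was 0.35 ± 0.16 without I/R library 1. No member had groups that did not overlap, against 5.62% of all genes tested, and the median log2 fold change was 0.19 over the members and 0.000 over all genes.

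**Figure D2:**
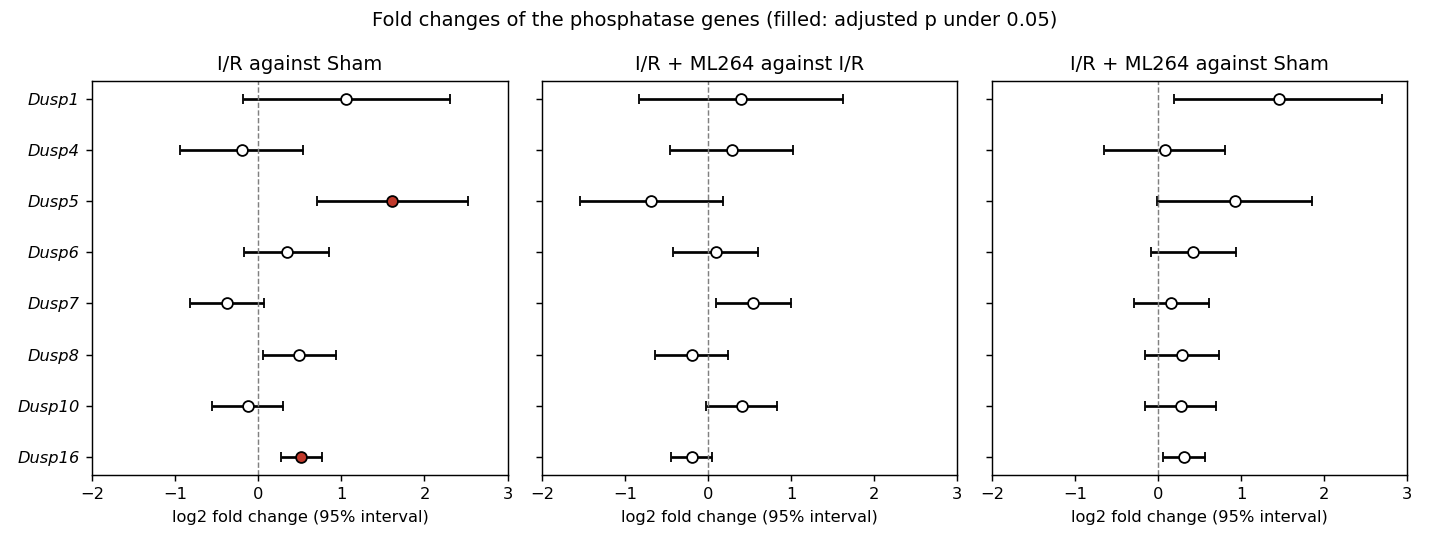
Log2 fold change of each tested phosphatase gene (horizontal axis) with its 95% interval in the 3 comparisons, filled where the adjusted p was under 0.05. Dusp5 and Dusp16 are the filled points, both in I/R against Sham, and the interval of Dusp1 is among the widest in each panel.

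Both genes that rose after injury had lower means with ML264. Dusp5 had 0.993, 1.58, 0.234 and 1.37 CPM in I/R + ML264 libraries 1 to 4, against 1.179 to 2.47 CPM in I/R. Library 3, with 6 counts, lay below every other library of the series. The log2 fold change was -0.69 ± 0.41 (SE, 95% interval -1.55 to 0.18, adjusted p = 0.587). It was -0.36 ± 0.32 without that library, and -0.45 ± 0.44 without I/R library 4 (SE). Dusp16 had 27.6, 28.0, 21.5 and 25.1 CPM in I/R + ML264, against 26.4 to 33.7 CPM in I/R, with a log2 fold change of -0.20 ± 0.12 (SE, 95% interval -0.45 to 0.04, adjusted p = 0.577). These intervals hold no change and also hold falls nearly as large as the rises after injury, so the data do not show whether ML264 altered the 2 genes. Without I/R + ML264 library 3 or without I/R library 4, the log2 fold change of Dusp16 was -0.13. This comparison and that of I/R with Sham share the I/R libraries.

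Of the remaining members, Dusp1 had 151, 112, 118 and 195 CPM in I/R + ML264 libraries 1 to 4, all within or above the I/R range of 49.99 to 158 CPM, and a log2 fold change of 0.39 ± 0.55 (SE, 95% interval -0.84 to 1.62). Dusp10 averaged 5.78 ± 0.871 CPM in I/R + ML264 and 4.39 ± 1.176 CPM in I/R (SD, n = 4 each), with a log2 fold change of 0.40 ± 0.20 (SE, 95% interval -0.03 to 0.83). Dusp4 (0.28 ± 0.35), Dusp6 (0.09 ± 0.24) and Dusp8 (-0.20 ± 0.21, log2 fold change ± SE) had overlapping groups, with adjusted p of 0.826, 0.931 and 0.784. For Dusp2, counts were 1, 6, 0 and 0 in I/R + ML264, a summed 7 against 14 in I/R (exact permutation p = 0.143). For Dusp14 they were 5, 1, 5 and 7, a summed 18 against 26 in I/R (exact permutation p = 0.971).

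I/R + ML264 was also set against Sham, for what injury and inhibitor together changed. No member was called by edgeR or by DESeq2, where edgeR called 0.288% of all genes tested. All 8 log2 fold changes were positive, with a median of 0.30, against 0.002 over all genes tested. The largest was that of Dusp1, at 112 to 195 CPM in I/R + ML264 and 16.6 to 103 CPM in Sham, groups that did not overlap. Of all genes tested, 3.99% had all I/R + ML264 libraries above all Sham libraries. The lowest Dusp1 values of Sham, 16.6 and 30.95 CPM, were in libraries 2 and 3, which had high Arntl. Sham libraries 1 and 4, with low Arntl, had 103 and 61.2 CPM of Dusp1. Arntl was low in every I/R + ML264 library, at 1.25 to 3.09 CPM. The log2 fold change of Dusp1 was 1.45 ± 0.56 (SE, 95% interval 0.19 to 2.70), with an edgeR adjusted p of 0.314. Dusp16 averaged 25.5 ± 2.996 CPM in I/R + ML264 and 20.6 ± 2.81 CPM in Sham (SD, n = 4 each). I/R + ML264 library 3 lay within the Sham range, and the log2 fold change was 0.31 ± 0.12 (SE, 95% interval 0.06 to 0.56, unadjusted p = 0.0165, adjusted p = 0.254). Dusp1 and Dusp16 were the 2 members with an unadjusted p under 0.05, where 13.0% of all genes had one. Dusp5, at 0.92 ± 0.44 (SE, 95% interval -0.01 to 1.85), had an adjusted p of 0.388, and Dusp6 (0.42 ± 0.24), Dusp8 (0.29 ± 0.21), Dusp10 (0.27 ± 0.20), Dusp7 (0.16 ± 0.21) and Dusp4 (0.08 ± 0.35, log2 fold change ± SE) had adjusted p of 0.488 to 0.949. The exact permutation p was 0.514 for Dusp2 and 0.8286 for Dusp14.

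The spread between libraries of one group differed widely among the members. For Dusp1 the within-group SD of log2 CPM was 0.817, against a median of 0.267 over all genes tested, and larger than that of 99.1% of the 533 genes with a similar level. Dusp5 followed at 0.770, larger than 87.5% of the 1951 genes of similar level. Dusp16 varied least among the members, at 0.177, which was still larger than 63.0% of the 1804 genes of similar level. For the other tested members it was 0.324 to 0.407. Among genes of similar level, that was larger than 92.1% for Dusp6, 92.5% for Dusp7, 88.6% for Dusp8, 74.3% for Dusp10 and 15.5% for Dusp4. Dusp1 thus needed a far larger difference than Dusp16 to pass the same test.

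The low libraries of several members were those with high Arntl. Sham libraries 2 and 3, the Sham libraries with high Arntl, had the lowest Sham values of Dusp1, Dusp6, Dusp7, Dusp8 and Dusp16. I/R library 1, the I/R library with high Arntl, had the lowest I/R values of Dusp1, Dusp6, Dusp7 and Dusp16, but not of Dusp8. Dusp4, Dusp5 and Dusp10 did not follow this order. With Arntl as a covariate, the log2 fold change of I/R against Sham was 0.47 ± 0.46 for Dusp1 (adjusted p = 0.652), 0.43 for Dusp16 (adjusted p = 0.0736), 1.66 for Dusp5 (adjusted p = 0.0787) and -0.77 ± 0.16 for Dusp7 (SE, adjusted p = 0.0186), so that Dusp7 was the member called in that fit and it was lower in I/R. In the 9 libraries with low Arntl, a set chosen after the data were seen, it was 0.65 ± 0.36 for Dusp1 (SE), 0.42 for Dusp16, 1.62 for Dusp5 and -0.42 ± 0.16 for Dusp7, with adjusted p of 0.435, 0.163, 0.214 and 0.208. In those libraries Dusp1 stood at 93.7 to 158 CPM in the 3 I/R libraries and at 61.2 and 103 CPM in the 2 Sham libraries.

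Y-linked transcripts were present in 2 of the 4 I/R libraries and in every Sham library. With their level as a covariate, the log2 fold change of I/R against Sham was 0.43 for Dusp16 and 1.27 for Dusp5, with adjusted p of 0.0714 and 0.148. In the libraries that held them, also a set chosen after the data were seen, it was 0.48 and 1.29 with adjusted p of 0.0622 and 0.215. With both covariates it was 0.25 and 1.17, with adjusted p of 0.510 and 0.454. The difference in the ML264 effect between libraries with and without Y-linked transcripts rests on 2 libraries per group and kind. On the log2 scale it ran from -0.95 ± 0.69 (SE) for Dusp4 to -0.04 ± 0.40 for Dusp7, and it was -0.79 ± 1.1 for Dusp1. The edgeR adjusted p was 0.999 for each of the 8 members, but so few libraries could hardly show a difference.

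**Figure D3:**
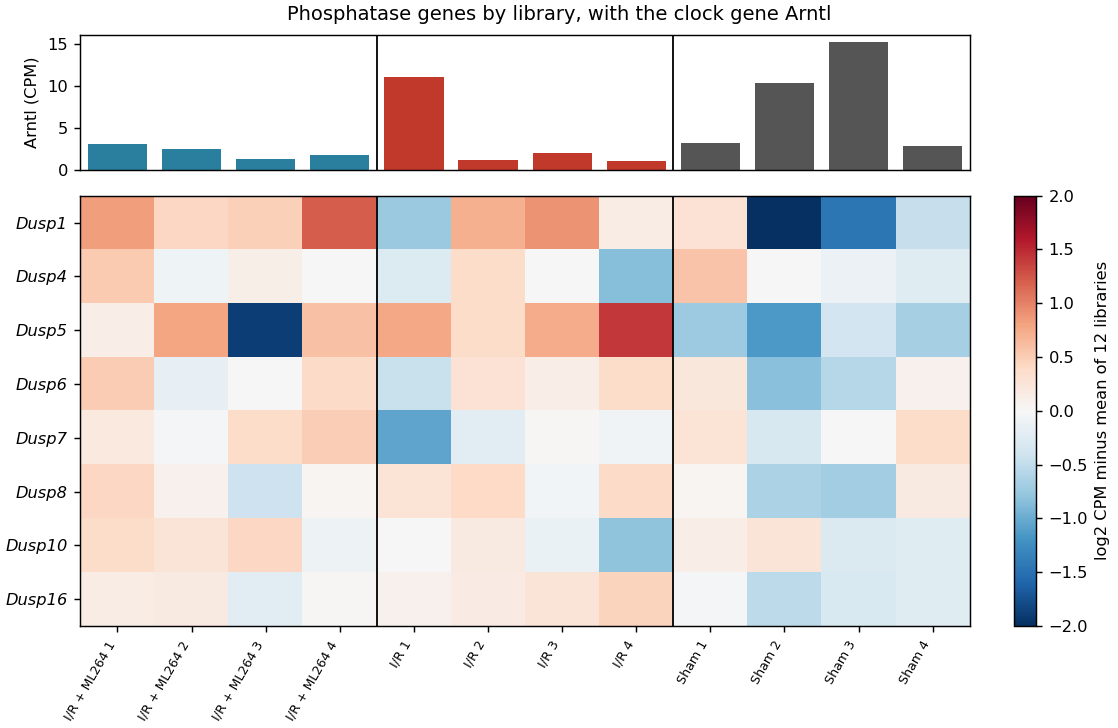
Arntl in CPM (upper panel, from 0) and log2 CPM of each tested phosphatase gene minus its mean over the 12 libraries (lower panel, colour scale from -2 to 2), with a column per library. Dusp1 in Sham library 2, at -2.34, lies beyond the scale. Dusp1 and Dusp6 are lowest in the 3 columns where Arntl is high, and Dusp5 and Dusp16 are above their means in all 4 I/R columns.

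Other genes of the family and the pathway were counted in lists. Among all genes tested in I/R against Sham, edgeR called 4.58% higher and 3.17% lower. Of 20 other genes of the dual-specificity family, 15 were tested in I/R against Sham, and 2 fell, with a median log2 fold change of 0.03. Dusp11, known as an RNA phosphatase, averaged 43.8 ± 3.98 CPM in I/R and 56.4 ± 3.93 CPM in Sham (SD, n = 4 each; log2 fold change -0.36 ± 0.09 SE, adjusted p = 0.0179). Dusp22, an atypical phosphatase linked to JNK signalling, averaged 2.19 ± 0.288 CPM in I/R and 4.24 ± 0.970 CPM in Sham (log2 fold change -0.95 ± 0.24 SE, adjusted p = 0.0210). Of the 7 tested MAP kinase phosphatases of other classes, Ppp2ca, the catalytic subunit of PP2A, rose (0.40 ± 0.08, adjusted p = 0.00970).

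Of 12 tested MAP kinases, typical and atypical, 1 rose, and it was Mapk6, the atypical kinase ERK3, by a log2 fold change of 0.59 ± 0.11 (SE, adjusted p = 0.00588). No gene of the ERK, JNK and p38 kinases named above was called. The median over the 12 was 0.02. None of the 7 MAP kinase kinases was called by edgeR or DESeq2, and 2 had an unadjusted p under 0.05, where 23.2% of all genes did. Of 22 MAP kinase kinase kinases, 3 rose and 3 fell. Map3k8, an activator of ERK known from Toll-like receptor signalling, rose by 1.27 ± 0.24 (adjusted p = 0.00687). Map3k1, which acts upstream of JNK, fell by 0.56 on the log2 scale (SE 0.11, adjusted p = 0.00595), and Taok2 fell by 0.59 (SE 0.11, adjusted p = 0.00611). The other calls of this list, named after their values were seen, were Map3k6 (3.07 ± 0.72) and Map3k12 (0.46 ± 0.13), which rose, and Map3k10 (-1.01 ± 0.27), which fell. Of the 10 kinases activated by MAP kinases, Mknk1, which phosphorylates the cap-binding protein eIF4E, fell (-0.79 ± 0.20, adjusted p = 0.0250).

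Feedback inhibitors of ERK other than the phosphatases rose in 3 of 9 tested cases, with a median log2 fold change of 0.27. Errfi1, the inhibitor of the EGF receptor family, averaged 165 ± 34.2 CPM in I/R and 36.2 ± 25.9 CPM in Sham (SD, n = 4 each; 2.19 ± 0.47 log2, adjusted p = 0.0242). The Sprouty genes Spry4 (1.65 ± 0.37, adjusted p = 0.0249) and Spry2 (0.58 ± 0.14, adjusted p = 0.0210) also rose. Of 13 tested ERK-responsive target genes, 4 rose and none fell, with a median of 0.80. Egr2 (2.67 ± 0.47), Egr3 (3.03 ± 0.69) and Ier3 (1.42 ± 0.37) had adjusted p of 0.00546, 0.0182 and 0.0315, and the fourth call, named after its value was seen, was Myc (2.22 ± 0.53). Of 15 factors and activators tied to JNK and p38, 3 rose and 1 fell, with a median of 0.11. Gadd45b, an activator of MAP kinase kinase kinases, rose by 2.48 ± 0.35 (adjusted p = 0.000629), Junb by 2.65 ± 0.59 (adjusted p = 0.0216) and Gadd45g, named after its value was seen, by 1.95 ± 0.56, while Creb1 fell (-0.38 ± 0.10, adjusted p = 0.0285). The I/R and Sham libraries overlapped for Junb and Gadd45g.

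**Figure D4:**
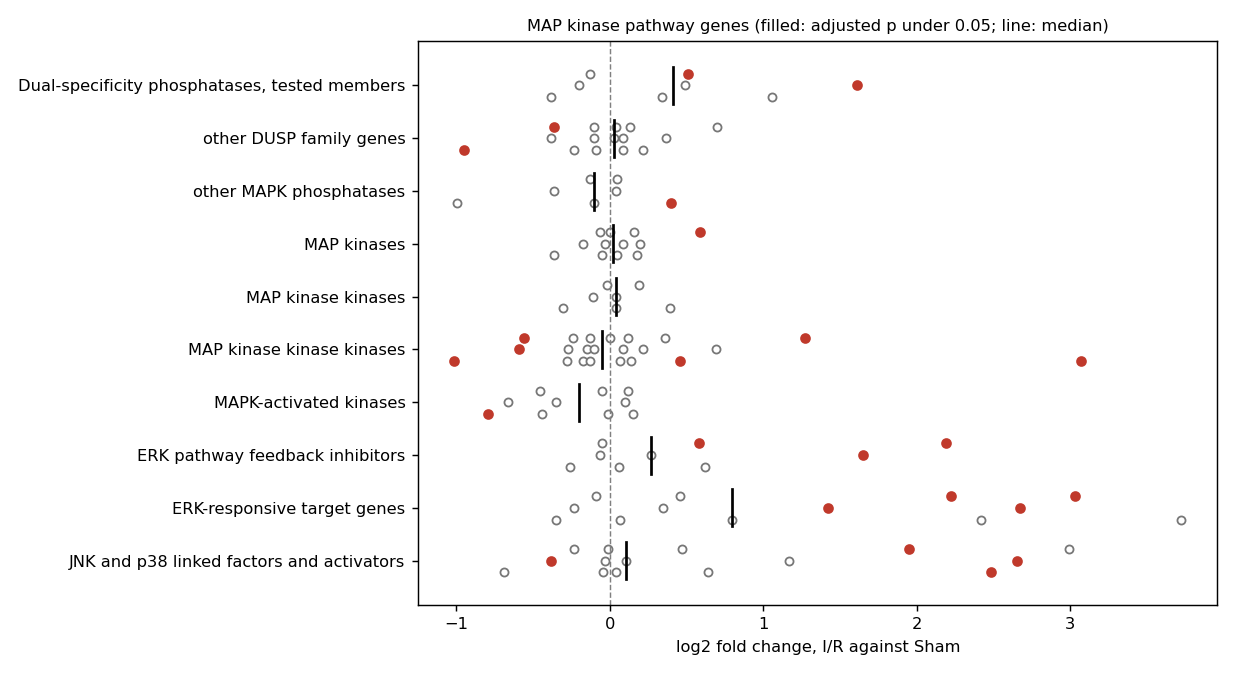
Log2 fold change of I/R against Sham (horizontal axis) of each tested gene in the phosphatase list and 9 pathway lists (rows), filled where the adjusted p was under 0.05, with the median of each list as a vertical line. The medians lie at 0.41 for the phosphatases and 0.80 for ERK-responsive genes, and between -0.20 and 0.27 for the other 8 lists.

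Of the 17 pathway calls described by rule in I/R against Sham, 7 held in every fit that left out 1 library: Mapk6, Map3k1, Taok2, Map3k8, Egr2, Gadd45b and Ppp2ca. With both covariates none of the 7 was called, and Map3k8 was also lost with Arntl as a covariate. In the libraries with low Arntl Mapk6, Map3k1, Taok2 and Ppp2ca were not called, and Ppp2ca was also lost with the Y-linked covariate and in the libraries that held Y-linked transcripts. The feedback inhibitors lost their calls in some of the fits that left out 1 library, at log2 fold changes of 1.93 to 2.77 for Errfi1, 0.50 to 0.67 for Spry2 and 1.47 to 1.81 for Spry4 over those fits. That of Errfi1 ended without Sham library 3 or 4 or I/R library 2 or 3, that of Spry2 without Sham library 2 or 4 or I/R library 2 or 3, and that of Spry4 without Sham library 1, 2 or 3 or I/R library 2 or 4. Dusp11 lost its call without Sham library 4 or I/R library 4, Dusp22 and Mknk1 each in 4 such fits, Creb1 in 6, Ier3 in 4, Junb in 3 and Egr3 without Sham library 3.

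With ML264, edgeR called no gene of any of these lists against I/R. DESeq2 called 3, each lower in I/R + ML264: Map3k8 (log2 fold change -1.24 ± 0.25, adjusted p = 0.00100), Mapk6 (-0.46 ± 0.12, adjusted p = 0.0336) and Gadd45b (-1.22 ± 0.33, SE, adjusted p = 0.0351). In edgeR, Mapk6 averaged 28.2 ± 3.08 CPM in I/R + ML264 and 38.8 ± 5.30 CPM in I/R (SD, n = 4 each), with a log2 fold change of -0.46 ± 0.11 (SE) and adjusted p = 0.156. Against Sham, edgeR called Spry2 (0.71 ± 0.14, adjusted p = 0.0467), a call lost in 10 of the 12 fits with a library removed. DESeq2 called 370 genes in that comparison. They included 7 pathway genes, all higher in I/R + ML264: Spry2, Spry4, Errfi1, Egr2, Egr3, Junb and Gadd45b. Apart from Spry2, these had edgeR adjusted p of 0.0689 (Egr2) to 0.169 (Spry4).

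The genes whose pattern over the 12 libraries was most like that of the 2 called members were found by the root mean square difference of centred log2 CPM, among 10766 genes. For Dusp16 they were Elf2, an ETS family transcription factor (0.080), Napa, a protein of vesicle fusion (0.106), and Zfp689 (0.109). Their log2 fold changes of I/R against Sham were 0.44, 0.50 and 0.65. For Dusp5 they were Fut2, a fucosyltransferase (0.373), Havcr2, an immune receptor (0.394), and Adamts9, a matrix protease (0.430), with log2 fold changes of 1.60, 1.17 and 1.79. Fut2 and Havcr2 were not called in I/R against Sham (edgeR adjusted p = 0.0718 and 0.0620). Adamts9 was called (0.0122), as were the genes like Dusp16. Similar fold changes follow from choosing genes by likeness over the same libraries. The root mean square differences were several times larger for Dusp5 than for Dusp16, whose values were also less scattered.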

How the data were processed

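Bulk RNA of frozen mouse heart was sequenced in 12 libraries, 4 per group. The authors deposited raw estimated counts of transcripts, with a column for each library. FastQC and kallisto were used with GRCm38 (mm10), per the submitters' processing notes. Tool versions and read trimming are not given in those sources. The kit was Nextera XT on double-stranded cDNA, per the labels' protocols, so strand is not marked. Groups were taken from the sample titles.

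Transcript values (104952 transcripts) were summed per symbol and rounded to whole numbers. Isoforms are not described: in 4 of 5812 genes with 2 or more transcripts and at least 2400 counts was the largest transcript the same in all libraries, while sums per gene varied between Sham libraries no more than genes of 1 transcript (median SD of log2 CPM 0.130 and 0.144). The 3 comparisons were fitted in 1 model over the 12 libraries by the robust quasi-likelihood test of edgeR 4.0.16 (R 4.3.3), after filterByExpr with a minimum of 10 counts and TMM scaling, which was tested on simulated data. P-values were adjusted over all 15952 genes that passed. The biological coefficient of variation was 0.205. Intervals of log2 fold changes are 95% intervals from the test's degrees of freedom. CPM are TMM-scaled, and log2 CPM uses a prior of 0.5 counts. Floors and ratios of counts cover counting error only. No 2 libraries held identical values, and replicates differed by more than counting noise.

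The members and gene lists were chosen with earlier results of these data known. Named genes are the members, up to 3 called genes per list and comparison with the smallest adjusted p, and the 3 genes most like each called member in centred log2 CPM. Gene coordinates are from GENCODE M21 (GRCm38) and span the transcripts in the table. Alternatives were DESeq2 1.42.0, RLE and upper-quartile factors, other filters, a non-robust spread, only the groups compared, mitochondrially encoded genes left out, the replicate number as a block, Y-linked transcripts or Arntl as covariates, and each library left out.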

Additional observations from a re-analysis of the deposited data

How the results depend on the processing

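The count of phosphatase genes called in I/R against Sham (2) was the same with RLE or upper-quartile factors, with either other filter, with only the 2 groups compared, without mitochondrially encoded genes, with a non-robust spread and with DESeq2. It was 0 to 2 over the fits that left out 1 library. It was 0 with Y-linked transcripts as a covariate, 1 with Arntl (Dusp7, lower), 0 with both, 0 in the libraries with Y-linked transcripts and 0 in those with low Arntl. The last 2 sets were chosen after the data were seen and hold fewer libraries, and the cause of the other losses was not tested. In the comparisons with ML264 the count was 0 under every setting run. Over all genes, the calls in I/R against Sham were 1236, and 451, 637 and 60 with Y-linked transcripts, Arntl and both as covariates.

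Same-numbered libraries of different groups did not deviate together (correlations of -0.114 to 0.089 over 12 pairs, with 1 library correlating best with its own number). These correlations showed no pairing by number, but they could miss a weak shared effect. With the replicate number as a block the count was 1, since Dusp5 had an adjusted p of 0.0552.

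Of 629 fold changes of members under the alternatives, 21 changed sign, and none of these was called in either fit. In I/R against Sham they were Dusp6 (-0.01 with Arntl as a covariate, -0.14 with both covariates), Dusp10 (0.10 with both, -0.26 to 0.04 over the fits leaving out 1 library, the last without I/R library 4, 0.05 in libraries with Y-linked transcripts) and Dusp4 (0.13 in the same libraries). In I/R + ML264 against I/R they were Dusp6 (-0.06 without I/R library 1 and -0.03 without I/R + ML264 library 1, in a range up to 0.20 over such fits, -0.00 in libraries with Y-linked transcripts, -0.05 in those with low Arntl) and Dusp4 (-0.15 in libraries with Y-linked transcripts). In I/R + ML264 against Sham they were Dusp7 (-0.23 with Arntl, -0.11 with both, -0.07 with low Arntl), Dusp6 (-0.06 with both), Dusp8 (-0.21 with both, -0.06 with low Arntl) and Dusp4 (-0.02 without Sham library 4, -0.08 without I/R + ML264 library 1, in a range up to 0.28, -0.03 in libraries with Y-linked transcripts, -0.06 with low Arntl). Of the 18 pathway calls, 18 held with DESeq2, 14 with the block, 8 with either covariate and 0 with both. Depth limits Dusp2 and Dusp14, with 0 to 13 counts per library.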
